A study of Salmo salar with 18 samples.

Results

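PBK and STMN1 are genes whose products act in dividing cells, and 1 probe of each, C166R168 for PBK and C001R139 for STMN1, was followed through the livers of 18 Atlantic salmon. These 2 probes were taken by name from the 43689 probes of the array, of which 23846 were tested. Their symbols come from the study's list of probes that differed between WN and CT fish on these same arrays. They were thus chosen by their measured WN v CT log2 fold change, which is given as a description, with no test. Earlier results of these data were also known when they were chosen.

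PBK, also called TOPK, is a serine/threonine kinase of the MAP kinase kinase family that is phosphorylated and active in mitosis, and in mammals its transcript is low in most resting adult tissues. Stathmin, the product of STMN1, binds tubulin dimers and promotes the shortening of microtubules. Its phosphorylation at the onset of mitosis turns that activity off, so that the spindle can form. Hepatocytes of an adult liver are mostly quiescent, and transcripts of this kind are widely read as markers of cycling cells. Salmonids descend from an ancestor whose genome was duplicated, and often carry several copies of a gene.

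Each array compared the liver RNA of 1 juvenile, a post-smolt held in seawater, with a common pool of RNA from all 18 fish. The treatments were CT, with 6 fish kept at 12 °C and 100% air saturation, WN, with 6 fish warmed by 1 °C per week to 20 °C at 100% air saturation, and WH, with 6 fish first brought to 70% air saturation and then warmed to 20 °C in the same way. All fish were fed by hand to satiation, but the study reports that WH fish ate less and grew less than WN and CT fish. Each treatment had 2 tanks, and 3 fish of each tank were hybridized. Fish RNA carried Cy5 and the pool Cy3 on every array, so that a log2 ratio above 0 stands for more transcript in the fish than in the pool. The pool holds RNA of the fish themselves, so a value is relative to the mean of the experiment. WH fish had already been held at 70% air saturation for some weeks when warming began, so the oxygen level and the time spent at it cannot be told apart. The lower food intake and growth of WH fish cannot be told apart from them either, and their part was not tested.

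Both probes matched salmon transcripts in the study's annotation. The PBK probe belongs to LOC106607811 and the STMN1 probe to LOC106570260, which the RefSeq gene table of Ssal_v3.1 lists as protein coding genes. A further 2 probes carry the symbol STMN1 in that annotation, C181R051 for LOC106588646 and C169R101 for LOC106584327, which RefSeq calls stmn1b. No other stathmin gene and no other PBK probe was in the part of the annotation that could be read. Neither PBK nor STMN1 was among the genes that the study measured by qPCR. For array differences that qPCR did not bear out, the study names cross-hybridization of gene copies among possible causes. No probe sequence was checked here.

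PBK was highest in CT fish, intermediate in WN fish and lowest in WH fish. The log2 ratios of the 6 CT fish were 0.89, 0.22, 0.48, 0.03, -0.19 and 1.19, with a mean of 0.44 ± 0.53 (SD, n = 6). The 6 WN fish gave -1.22, -0.16, -0.91, 0.29, -0.23 and -0.83, with a mean of -0.51 ± 0.57 (SD, n = 6). In the 6 WH fish the ratios were -1.14, -1.91, -2.21, -1.10, -0.91 and -0.64, with a mean of -1.32 ± 0.61 (SD, n = 6). Every WH fish lay below the lowest CT fish, whereas 2 WN fish lay within the CT range. Of the WH fish, 2 were below the lowest WN fish and the other 4 lay within the WN range.

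STMN1 had the same order of treatments. In CT fish its log2 ratios were 0.91, 0.91, 0.49, 1.00 and 0.08, with a mean of 0.68 ± 0.39 (SD, n = 5). The spot of the sixth CT fish carried a quality flag and was left out, and its ratio with flagged spots kept was 0.56, inside the range of the other 5. WN fish gave -0.98, 0.49, -0.20, 0.09, -1.28 and -0.29, with a mean of -0.36 ± 0.66 (SD, n = 6). WH fish gave -0.51, -1.46, -1.57, -1.38, -1.47 and -0.91, with a mean of -1.22 ± 0.42 (SD, n = 6). Again all 6 WH fish were below the lowest CT fish, and 2 WN fish overlapped with the CT fish. The WN fish were the most spread of the treatments for this gene.

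**Figure D1:**
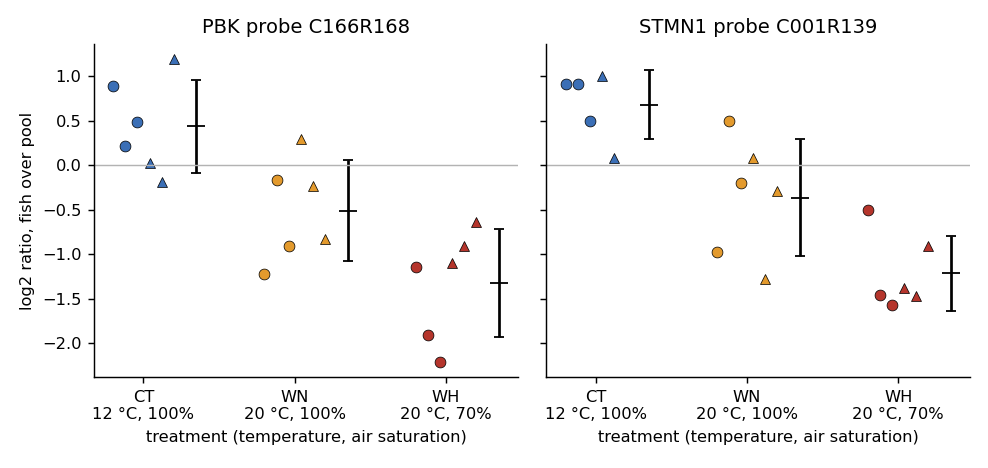
Log2 ratio of each fish over the pool for the PBK probe (left) and the STMN1 probe (right), by treatment with its temperature and air saturation. Circles and triangles are the 2 tanks of a treatment, and the bar beside each group is the mean ± SD. All WH fish lie below all CT fish for both genes (highest WH fish -0.64 for PBK and -0.51 for STMN1, lowest CT fish -0.19 and 0.08), and the WN fish overlap with both.

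Of the 2 probes, only PBK came near the detection limit. A spot counted as detected when its Cy5 median exceeded the local background median by more than 2 background SDs. STMN1 was detected in this way in all 18 fish. Its Cy5 intensity ranged from 4886 to 10850 in CT fish (median 8360), from 1339 to 6718 in WN fish (median 2875) and from 1103 to 4973 in WH fish (median 1929). Raw intensities are not scaled between arrays, and are given only to place each spot against its background.

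PBK was detected in the Cy5 channel in 5 of 6 CT fish, 3 of 6 WN fish and 3 of 6 WH fish. The CT fish that missed the limit stood at 0.984 times its limit, and the 3 WN fish that missed it stood at 0.901 to 0.930 times theirs. The 3 WH fish that missed it were further below, at 0.574, 0.666 and 0.784 times the limit. Its Cy5 intensity was 602 to 1575 in CT fish (median 901.5), 105 to 662 in WN fish (median 229.5) and 76 to 391 in WH fish (median 134). The pool, which holds the same RNA everywhere, was detected for PBK in the Cy3 channel on all 18 arrays, so that the probe passed the filter on every array. No treatment had all its fish below the limit, but the ratios of the WN and WH fish rest on 3 detected spots each, and those of the other 3 fish are less certain. The limit itself differed between arrays, from 204 to 870 in CT fish, 65.0 to 735 in WN fish and 96.9 to 332 in WH fish, so the counts of detected fish also depend on the local background. That background median differed between treatments. It was recorded as 1 on array CT-3 and as 29 to 148 on the other CT arrays. On arrays WN-2, WN-5 and WH-1 it was 114, 176 and 31, and on all other WN and WH arrays it was 1. Among the 6 WH fish, the 3 detected ones were also the 3 brightest, at 391, 184 and 218.

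**Figure D2:**
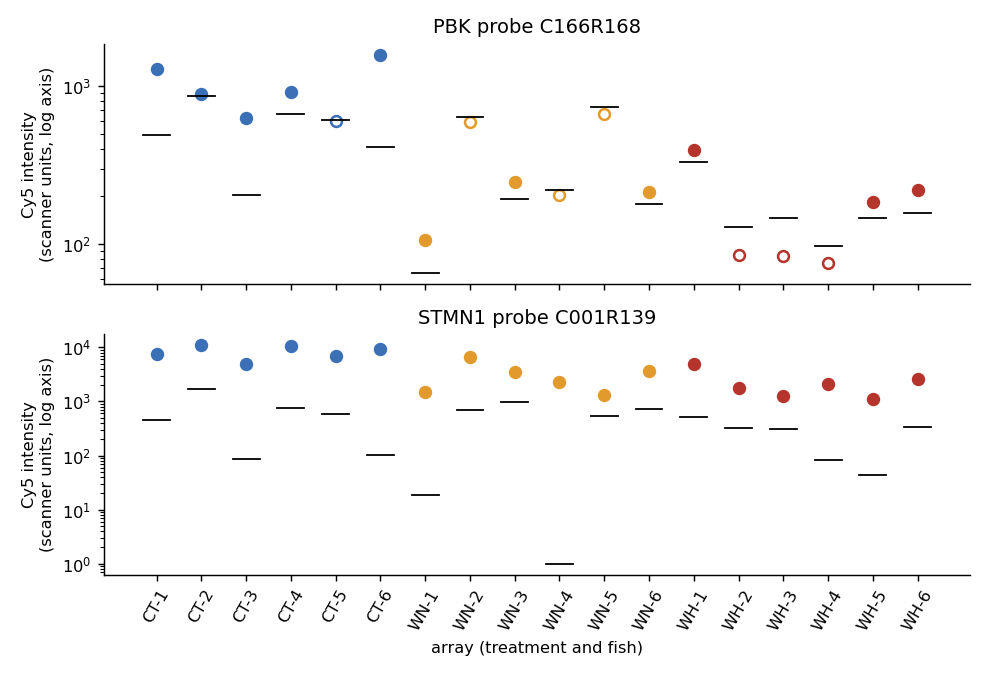
Cy5 intensity of the PBK spot (top) and the STMN1 spot (bottom) on each array, in scanner units on a log axis, coloured by treatment. The black dash is the detection limit of that spot, the local background median plus 2 background SDs, and open circles are spots below it. STMN1 lies above its limit on all 18 arrays, and PBK on 5 CT, 3 WN and 3 WH arrays.

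Between WN and CT fish, the comparison that chose the probes, PBK was lower by 0.95 on the log2 scale (log2 fold change -0.95, SE 0.30), a 1.93-fold difference. STMN1 was lower by a similar amount (log2 fold change -1.04, SE 0.29), a 2.06-fold difference. All 6 WN fish were below the CT mean for either gene. Across the array, 4.94% of the tested probes passed the threshold in this comparison, and nothing is read from that share for probes that the comparison chose.

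The differences of WH from CT fish were larger in their estimates than those of WN fish. Whether they exceed them is the comparison of WH with WN fish below, which neither probe passed. PBK was 3.38-fold lower in WH than in CT fish (log2 fold change -1.76, SE 0.30, limma adjusted p = 0.000965). With 3 of the 6 WH spots below the detection limit, the size of this difference is less certain than its direction. It was -2.60 with no background correction, -2.43 in the deposited log2 ratios and -1.44 with median centring. STMN1 was 3.72-fold lower (log2 fold change -1.90, SE 0.29, limma adjusted p = 0.000366). Both passed the threshold, as 5.14% of all tested probes did, 2.72% of them downwards. For both genes the WH and CT fish did not overlap, which 2.09% of the 21001 probes with a value on all 12 arrays showed in this direction. STMN1 itself is not among those 21001, since it has 11 values. Only 0.34% of the tested probes had a lower log2 fold change than PBK in this comparison, and 0.26% a lower one than STMN1. This test uses the CT arrays that also entered the comparison by which the probes were chosen, and is not independent of it. It also takes the fish of a treatment as independent, although they came from 2 tanks.

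WH against WN compares fish at 70% and at 100% air saturation, all at 20 °C. The time spent at 70% and the lower food intake and growth of WH fish differ with it. PBK was lower in WH fish by 0.81 on the log2 scale (log2 fold change -0.81, 95% interval -1.44 to -0.18, limma adjusted p = 0.847), and all 6 WH fish were below the WN mean. STMN1 gave a log2 fold change of -0.85 (95% interval -1.43 to -0.27, limma adjusted p = 0.847), with all 6 WH fish below the WN mean and 4 below the lowest WN fish. Neither passed the threshold over the 23846 probes. No probe of the array did under limma, and 1377 probes, 5.77%, had an unadjusted p under 0.05. The intervals of these 2 probes taken singly lie below 0, and 0.608% of the probes had a lower log2 fold change than PBK and 0.453% than STMN1. Without a ratio to the pool, from the Cy5 channel alone, the differences shrank to -0.34 for PBK and -0.43 for STMN1, whereas PBK reached -1.40 with no background correction. The WN arrays are shared with the comparison that chose the probes, and the single intervals carry no adjustment over probes.

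By their means, both genes were ordered CT, WN, WH. Of the 23846 tested probes, 3583 had their means in that order. CT and WH lay beyond their spread from each other, while WN overlapped with both neighbours in single fish.

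The other probes of the symbol STMN1 did not all follow. C181R051 ranged from 0.15 to 0.97 in CT fish (median 0.32), from -0.85 to -0.07 in WN fish (median -0.48) and from -1.50 to -0.21 in WH fish (median -0.93). Its WN and WH fish all lay below all CT fish, as 2.02% of the probes with all 12 values did for WN and 2.09% for WH. Nothing is read from the WN share, since that comparison chose this probe, and the WH share rests on the same CT arrays. It was 2.50-fold lower in WH than in CT fish (log2 fold change -1.32, SE 0.23, limma adjusted p = 0.000872), and the WN v CT difference, which also put it on the study's list, was -0.93 (SE 0.23). Its difference between WH and WN fish was -0.40 (95% interval -0.87 to 0.07, limma adjusted p = 0.859).

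C169R101, the stmn1b probe, went the other way. It ranged from -1.55 to 0.25 in CT fish (median -0.78), from -0.27 to 0.69 in WN fish (median 0.13) and from -0.18 to 0.77 in WH fish (median 0.34). It was 2.06-fold higher in WH than in CT fish (log2 fold change 1.05, SE 0.27, limma adjusted p = 0.0215), although the groups overlapped and only 3 WH fish were above the highest CT fish. Of all tested probes, 2.42% passed upwards. Under median centring its adjusted p was 0.101, and it was 0.0634 without the first CT fish. The WN v CT difference of this probe was 0.85 (SE 0.27). In CT fish its spots stood at 1.25 to 3.69 times the detection limit, and 4 of 6 were detected at 3 background SDs. The 3 probes are assigned to 3 different genes.

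**Figure D3:**
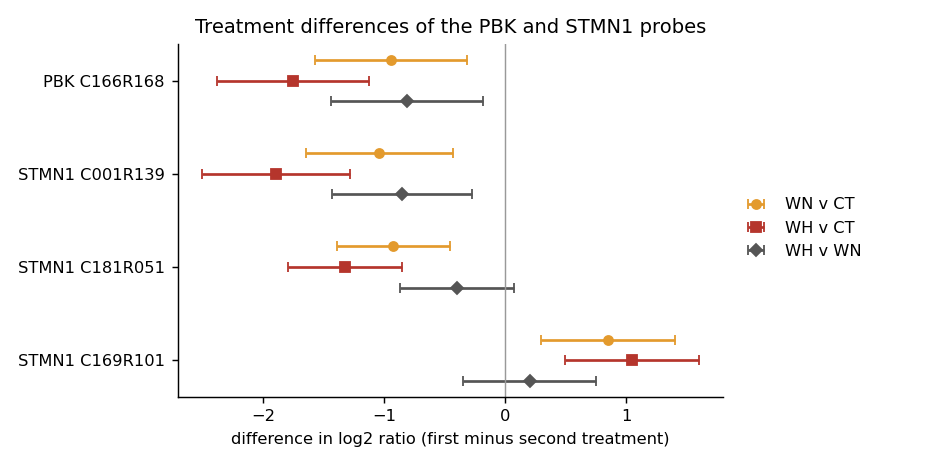
Log2 fold change (point) and 95% interval (bar) of the PBK probe and of the 3 probes of the symbol STMN1 for the 3 comparisons, from the limma fit of 18 arrays. PBK and the STMN1 probes C001R139 and C181R051 lie left of 0 against CT, and C169R101 lies right of it (1.05 for WH v CT).

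Other genes of cell division were examined in lists by role, in which a probe counts as lower or higher only past an adjusted p of 0.05. The lists named 68 symbols of replication, 66 of mitosis, 26 of tubulins and microtubules and 25 of the first gap phase and brakes. Genes without a readable symbol may still have a probe on the array. All of their tested probes stand in the study's list of probes called between WN and CT fish, so the WN v CT counts below only describe that choice, and the WH v CT counts share its CT arrays. Over all tested probes, 3.08% were lower and 1.86% higher in WN than in CT fish (median log2 fold change 0.01), against 2.72% and 2.42% in WH fish (median 0.04). The median difference of WH from WN fish was 0.03. The shares over all tested probes are of a set not chosen in this way. A list's excess over them is thus not read as a result about its genes.

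Genes of DNA replication and nucleotide supply were represented by 30 tested probes of 17 genes. In WH against CT fish, 15 probes of 7 genes were lower and 1 was higher, with a median of -0.73. DUT, the dUTPase that keeps uracil out of DNA, supplied 7 of the 15, and its probe C210R137 changed most (log2 fold change -1.32, SE 0.25, limma adjusted p = 0.00232). PCLAF, a partner of the replication clamp, fell by 1.24 on the log2 scale (limma adjusted p = 0.00338), and DTYMK, the thymidylate kinase, by 1.06 (limma adjusted p = 0.0246), a call lost under 2 of 14 alternatives (adjusted p up to 0.0997) and without any of 3 single fish (up to 0.0648). All 3 probes of PCNA, the clamp itself, were among those called, at -0.75 to -0.72. USP1, a deubiquitinase of DNA repair, was the probe that rose (log2 fold change 1.21, limma adjusted p = 0.00345). In WN against CT fish, 12 of the 30 were lower and 1 higher (median -0.76). None passed between WH and WN fish (median -0.06).

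Genes of mitosis gave 18 probes of 15 genes. In WH against CT fish 11 probes of 10 genes were lower and none was higher, with a median of -0.88. BIRC5, or survivin, a subunit of the chromosomal passenger complex, had the largest change (log2 fold change -2.17, SE 0.30, limma adjusted p = 9.56e-05). Its log2 ratio was 0.27 to 0.62 in CT fish, -1.37 to 0.54 in WN fish and -2.68 to -0.79 in WH fish, and no WH fish overlapped with a CT fish. KIF2C, the kinesin that removes tubulin from microtubule ends at kinetochores, changed by -2.08 (SE 0.28, limma adjusted p = 9.26e-05), from 0.17 to 1.34 in CT fish to -2.12 to -0.22 in WH fish. PTTG1, or securin, fell by 1.41 on the log2 scale (limma adjusted p = 0.00345) and KIF15, a spindle kinesin, by 1.23 (limma adjusted p = 0.00446). HMGB2, a chromatin protein, was lower at its probe C120R031 (log2 fold change -0.92, limma adjusted p = 0.0336), with 3 CT values only, and lost its call under 6 of 13 alternatives and without any of 7 single fish. At the other HMGB2 probe, C009R017, the WH v CT log2 fold change was -0.28 (limma adjusted p = 0.632). TACC3, a spindle protein, was higher in WN fish by 1.11 and had a WH v CT log2 fold change of 0.75 (limma adjusted p = 0.213). In WN against CT fish 8 of the 18 were lower and 4 higher (median -0.88).

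BIRC5 and KIF2C shared with PBK and STMN1 a further difference between WH and WN fish, at -1.18 (SE 0.30) and -1.12 (SE 0.28), neither past the threshold (limma adjusted p = 0.781 for both). Of all tested probes, 0.0755% lay lower than BIRC5 in that comparison and 0.101% lower than KIF2C. The median of the 18 mitosis probes for WH v WN was -0.25, and KIF15 and PTTG1 were at -0.18 and -0.40. These 2 genes were named for their change against CT fish, and their WH v WN values were noticed afterwards.

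Tubulins, to which stathmin binds, and other microtubule proteins were mostly lower. Of 9 probes of 6 genes, 8 were lower in WH than in CT fish and none was higher (median -1.08). The alpha tubulin TUBA1C was lower at all 3 of its probes, from -1.44 (SE 0.27, limma adjusted p = 0.00218) to -0.86, and the beta tubulin TUBB2B at both of its probes, at -1.35 (SE 0.25, limma adjusted p = 0.00175) and -1.17. CETN3, a centrin of the centrosome, was at -1.08 (SE 0.21, limma adjusted p = 0.00245). Between WN and CT fish 6 of the 9 were lower, and between WH and WN fish none passed (median -0.12).

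Regulators of the first gap phase and brakes on the cycle did not move as a block. Of 8 probes of 6 genes, in WH against CT fish none was lower and 2 were higher (median 0.30). Both belong to CDK7, the kinase that activates other cyclin-dependent kinases and also serves in transcription, with log2 fold changes of 1.20 (SE 0.22, limma adjusted p = 0.00168) and 1.07 (SE 0.23, limma adjusted p = 0.00750). The second of them, C264R135, lost its call under 2 of 14 alternatives (adjusted p up to 0.160). CCND1, or cyclin D1, was at 0.81 (limma adjusted p = 0.0762). LIN52, a subunit of the complex that represses cell cycle genes in quiescence, was lower in WN fish at its probe C079R008 (log2 fold change -0.83) and at -0.41 in WH fish (limma adjusted p = 0.240). In WN against CT fish 2 of the 8 probes were lower and 2 higher (median -0.01).

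Of 13 symbols listed for genes that act next to PBK, 2 had a probe with a readable symbol. MPDZ, a scaffold with PDZ domains of the kind that PBK binds, was higher in WH than in CT fish (log2 fold change 1.96, SE 0.33, limma adjusted p = 0.000709) and by 2.92 (SE 0.33) in WN fish. MAPK3, or ERK1, was lower in WN fish (log2 fold change -0.89, SE 0.25) and at -0.26 in WH fish (limma adjusted p = 0.643).

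The counts in these lists depended on how an array was centred. With the median in place of loess, the probes lower in WH than in CT fish numbered 2 in the replication list, 6 in the mitosis list and 3 in the tubulin list, and with slide as a block they numbered 4 in the replication list and 5 in the tubulin list.

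**Figure D4:**
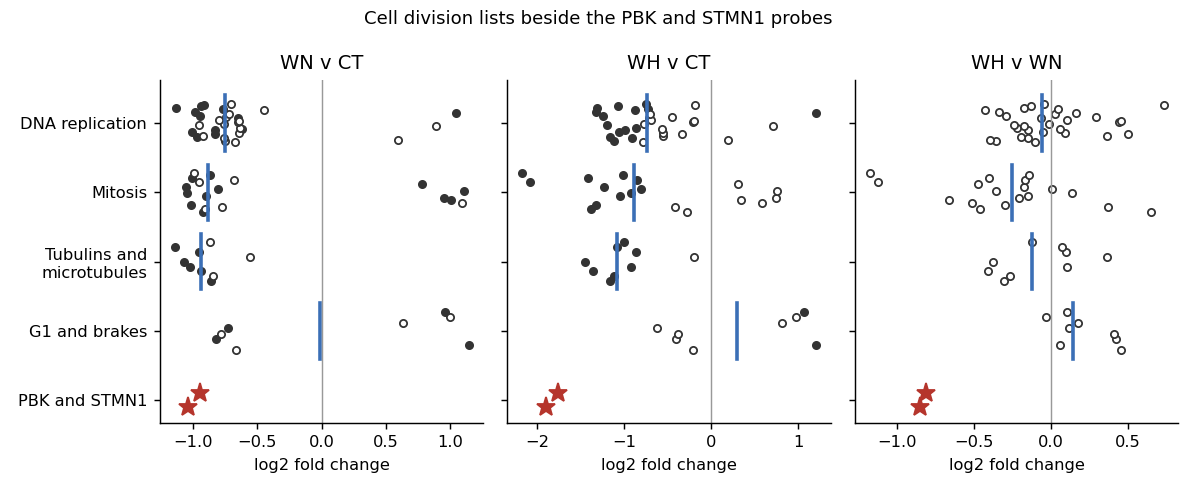
Log2 fold change of each tested probe of 4 cell division lists in each of the 3 comparisons, with a blue bar at the list's median, and PBK and STMN1 as stars. Filled points passed an adjusted p of 0.05. For WH v WN no point is filled, and 2 mitosis probes, BIRC5 and KIF2C (-1.18 and -1.12), lie left of the stars.

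Across the 17 arrays with both values, the log2 ratios of PBK and STMN1 had a Pearson r of 0.813, which describes mainly the treatments that separate the fish and the pool that all arrays share. By the same measure the probe most like STMN1 that has a symbol was the other falling STMN1 probe, C181R051 (r = 0.902 over 17 arrays), followed by DUT (0.900), KIF15 (0.896), PTRH2, a mitochondrial peptidyl-tRNA hydrolase (0.889), and TMEM237, a protein of the ciliary transition zone (0.880). The other 5 of the 10 nearest probes have no symbol here. For PBK 9 of the 10 nearest have none, and the tenth carries the symbol of TTN, the giant muscle protein titin (r = 0.862 over 18 arrays). Likeness was ranked among 18651 probes for STMN1 and 18650 for PBK. The 2 probes stood in each other's lists at places 21 and 49.

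Among fish of a single treatment the relation was weaker. In WN fish Pearson's r was 0.40 (exact permutation p = 0.414, n = 6) and Spearman's rho 0.54 (exact permutation p = 0.297). In WH fish they were 0.51 (exact permutation p = 0.285, n = 6) and 0.43 (exact permutation p = 0.419). After adjustment over the 2 treatments the p-values were 0.414 for both Pearson correlations and 0.419 for both Spearman correlations. Without the 2 fish farthest from the median PBK value, r was -0.049 in WN and -0.085 in WH fish, over 4 fish each. Leaving out the extremes of PBK narrows its range, and 4 fish cannot show what the relation rests on. CT fish had 5 pairs of values, and no correlation was computed.

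**Figure D5:**
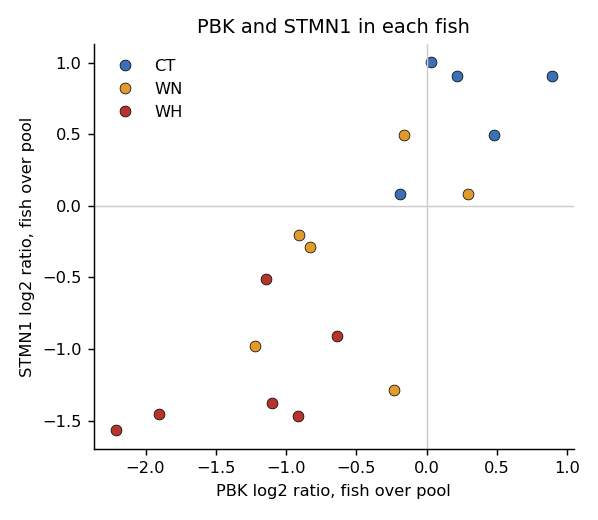
Log2 ratio of STMN1 against that of PBK in each of the 17 fish with both values, coloured by treatment. CT fish lie at the upper right, WH fish at the lower left and WN fish between them, with a Pearson r of 0.813 over all points that follows the separation of the treatments.

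In WN and WH fish the 2 tanks were nearer to each other for STMN1 than for PBK, and in CT fish they were not. For STMN1 the tank means were 0.77 and 0.54 in CT fish, -0.23 and -0.50 in WN fish, and -1.18 and -1.25 in WH fish. For PBK they were 0.53 and 0.35 in CT fish, -0.76 and -0.25 in WN fish, and -1.75 and -0.88 in WH fish. All 3 fish of the first WH tank were below all 3 fish of the second. For either gene, both WH tanks lay below both WN tanks, and these below both CT tanks. Each tank held a single treatment, and the p-values of the main limma fit take the fish of a tank as independent. With tank as a random block, the WH v CT differences had limma adjusted p-values of 0.000457 for PBK and 0.000142 for STMN1. The estimated correlation among fish of a tank was -0.0501, and a negative value narrows the errors, so this block makes no allowance for fish of a tank being alike.

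Arrays whose scanner headers share an image number, which also ends the X code of the sample titles, were taken as 1 slide. No label calls that code a slide. By this reading the 18 arrays lay on 5 slides that mixed treatments, and the differences were also taken within them. On the 3 slides with both CT and WH fish, PBK was lower in WH fish on each, by -1.47 to -1.32, and STMN1 likewise, by -1.50 to -1.40. The probe C169R101, higher in WH fish over all arrays, was lower in them on 1 of these 3 slides (-0.18 to 1.55). On the 3 slides with WH and WN fish, STMN1 was lower in WH fish on each (-0.80 to -0.62) and PBK on 2 (-1.21 to 0.19). With slide as a block in the fit over all arrays, the WH v CT differences were -1.65 for PBK (limma adjusted p = 0.0111) and -1.67 for STMN1 (limma adjusted p = 0.00188).

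Liver holds other cells than hepatocytes, and in bulk RNA fewer cells of a type and less transcript per cell cannot be told apart. Marker symbols come from the same annotation, nearly all of it the study's list of probes called between WN and CT fish. The WN v CT counts of markers thus mainly describe that choice, and their WH v CT counts share its CT arrays. Over all tested probes, a set not chosen in this way, 2.72% were lower and 2.42% higher in WH than in CT fish. The tissue was checked with 4 hepatocyte probes of 3 genes, which were detected on all 18 arrays. Between WH and CT fish, 2 of the 4 hepatocyte probes were higher, those of FABP1 and APOH (median of the 4 probes 0.33). The C3 probes went the other way, at -0.30 and -0.54, and were not called. Against CT fish, stellate cell and fibroblast markers moved in the same direction as PBK and STMN1. Of 5 probes, 3 (COL1A1 and MFAP2) were lower in WH than in CT fish, with a median of -0.88. Their mean log2 ratio was 0.24 to 0.71 in CT fish, -0.87 to 0.12 in WN fish and -0.73 to 0.05 in WH fish. All but the COL1A1 probe belong to MFAP2, and between WH and WN fish the median was 0.08, with no call. Of 6 B cell probes, none passed the threshold in WH against CT fish and 1 was lower in WN against CT fish, with medians of -0.56 and -0.82 and a range of -0.21 to 0.90 in CT and -0.82 to 0.28 in WH fish. Granulocyte and macrophage markers went the opposite way, with 4 of 6 probes higher in WH than in CT fish (median 1.34), those of MMP13, MPO and NCKAP1L. In its comparison with qPCR, the study names the MPO probe epx, an eosinophil peroxidase-like gene. For NCKAP1L the study's qPCR found less transcript in WH than in CT fish, contrary to the array probe. Erythroid markers had 1 of 4 probes higher, that of GYPC at 1.32 (median of the 4 probes 0.16). GFI1B was at 0.82 and the ALAS2 probes at -0.50 and -0.66, none of them called. Biliary markers had none of 2 probes called (median 0.82). The single endothelial probe was at -0.60 and not called, and no T cell gene had a probe with a readable symbol. The part of these cells in the PBK and STMN1 values was not tested.

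Signal strength varied between arrays. Quality flags covered 8.93% to 17.3% of the probes of an array. The median ratio of signal to local background over its probes was 14.0 to 110 for Cy5 and 18.0 to 251 for Cy3. Local backgrounds were recorded as 1 scanner unit for many spots, as for PBK in most WH fish. For such spots the ratio is the raw signal, so these values do not measure how far signal stood above background.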

How the data were processed

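Liver RNA of 18 fish was measured on 18 two-colour arrays of 43689 probes, 6 per treatment. The authors quantified the spots with ImaGene, and the deposited scanner files hold the intensity of each spot, its local background and a quality flag, with nothing corrected. The deposited log2 ratios of 17072 probes, which the authors background-corrected and normalized by loess, served as an alternative. Fold changes of the study's own lists were not used. Its list of probes called between WN and CT fish supplied nearly all of the symbols. That list thus decided which probes could be members or markers, or enter a gene list.

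Log2 ratios were computed from spot medians with limma (version 3.58.1) in R (version 4.3.3), by normexp with an offset of 50 and loess within arrays, with flagged spots missing. Probes unflagged and above background by 2 background SDs in at least 1 channel on 75% of the arrays were tested in a fit of 3 treatments with Benjamini-Hochberg adjustment (threshold 0.05). Lists and members were chosen with earlier results of these data known. Symbols came from the study's annotation of 1452 probes that could be read. Named genes were both members, every STMN1 probe, the up to 3 called probes of largest change per list, and probes most like a member. The fit was tested on simulated data. Figures were drawn with matplotlib (version 3.10.9) in Python (version 3.11.15). The alternatives were other background corrections, centring, channels, filters and blocks, a permutation test, and each array left out. Replicate numbers name different fish in different tanks, and do not pair them.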

Additional observations from a re-analysis of the deposited data

How the results depend on the processing

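Against CT fish, PBK and STMN1 kept their direction and their adjusted p below 0.05 in WH fish under every alternative fitted across all probes (14 for PBK and 13 for STMN1, which has no value with detection required on every array) and with each of the 18 arrays left out in turn. The log2 fold change ranged from -2.60 to -1.44 for PBK and from -1.96 to -1.67 for STMN1 over the alternatives, from -1.89 to -1.58 and from -2.04 to -1.81 over the arrays left out, and the highest adjusted p was 0.0123 and 0.0196. The exact permutation test gave p = 0.00216 for both, the smallest that the splits of the fish can give. Here and below, that test shuffles single fish as if independent and makes no allowance for the 2 tanks of each treatment. Between WN and CT fish, PBK ranged from -1.41 to -0.85 and STMN1 from -1.36 to -0.98. Between WH and WN fish, no alternative across all probes brought either below an adjusted p of 0.05 (lowest 0.630 for PBK and 0.555 for STMN1). The exact permutation test of the single value, with no adjustment over probes, gave p = 0.0433 for PBK (difference -0.81) and 0.0260 for STMN1 (difference -0.85). Both probes were chosen with earlier results of these data known, so these single p-values are not read as a difference between WH and WN fish. With the replicate block the WH v CT differences were -1.76 for PBK and -1.93 for STMN1, and no call of either gene changed. Same-numbered fish had correlations of their deviations from -0.114 to 0.122, over 0.1 in 2 of 18 pairs, and 4 of 18 fish correlated best with their own number.

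Detection of PBK moved most with the rule. At 1 background SD all 6 fish of each treatment were detected, and at 3 background SDs 3 CT, 1 WN and 0 WH fish were. Without the 2 farthest fish the correlation of PBK with STMN1 turned from 0.40 to -0.049 in WN and from 0.51 to -0.085 in WH fish. The STMN1 probe C169R101 lost its WH v CT call under 3 alternatives (adjusted p 0.0542 with spot means, 0.101 with median centring and 0.152 from the Cy5 channel alone) and without any of 5 single fish (up to 0.0634). HMGB2 lost its call under 6 alternatives (up to 0.487) and without any of 7 single fish (up to 0.185), DTYMK under 2 (up to 0.0997) and without any of 3 fish (up to 0.0648), TUBA1C at C093R141 under 3 (up to 0.114) and CDK7 at C264R135 under 2 (up to 0.160). BIRC5 lost it with no background correction (-5.15, adjusted p 0.142), and KIF15 (0.122), PTTG1 (0.0732), TUBB2B at C048R126 (0.0542), CETN3 (0.0524) and PCLAF (0.0521) under 1 alternative each. Calls in WN against CT fish went from 1179 to 473 with median centring and 741 without the sixth CT fish. In WH against CT fish 1226 calls became 497 with median centring, 443 in the Cy5 channel alone and 693 with slide as a block. From the Cy5 channel alone, 4 mitosis and 4 tubulin probes were lower in WH fish. The causes were not tested. PBK lay near its detection limit in warmed fish, and in single CT fish as well (1.02 and 0.984 times the limit). Its fold changes are thus less certain than those of STMN1.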
